A study of Mus musculus with 27 samples.

Results

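The collagen chains of the mouse genome were followed through an in vitro differentiation of mouse cells toward the gonad, in bulk RNA sequencing of 27 libraries. The set held 44 genes, listed by symbol and matched to Ensembl genes, of 48795 genes in each file, and all 44 matched. Of these, 43 had enough reads to be tested, while Col10a1 (a network-forming chain of growing cartilage) reached at most 10 counts in a library and was not. The genes were placed in 6 classes: 11 fibrillar, 9 basement membrane, 9 network, 9 fibril-associated, 4 transmembrane and 2 other chains.

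There were 9 groups of 3 libraries. Every group came from 1 clone of XY embryonic stem cells (clone 7, F1:C57BL/6 x CBA) that carries the TESCO-CFP reporter, in which a Sox9 enhancer drives a fluorescent protein, together with R26-rtTA, so no group speaks for other clones. ESC were the stem cells. Per the methods of the study, these were kept with LIF, PD0325901 and CHIR99021, then passaged with LIF and knockout serum replacement (KSR) before differentiation. Which of these media the sequenced ESC came from is not stated there. EpiSC against ESC therefore also crosses a change of medium. EpiSC came from 60 h with Activin A (20 ng/ml), 1% KSR and bFGF (12 ng/ml). M, the mesoderm step, followed with 36 h of bFGF (20 ng/ml), BMP4 (10 ng/ml) and the PI3-kinase inhibitor LY294002 (10 μM). The IM1 to IM5 media, given for 3.5 days, had BMP4 (20 ng/ml) with bFGF (5 ng/ml) in common. IM1 had nothing more, IM3 also had retinoic acid (100 nM), IM2 retinoic acid and Activin A (10 ng/ml), IM4 retinoic acid and the GSK3 inhibitor CHIR99021 (0.3 μM), and IM5 all of these. The iSLC, named induced Sertoli-like cells, were IM3 cells that received lentiviruses for Nr5a1 and Dmrt1 under doxycycline for 4 days and Activin A (50 ng/ml) with other factors of a Sertoli medium, and they were sorted for CFP. They therefore differ from IM3 in virus, medium, time and sorting at once, which cannot be told apart. The libraries of a group are described as biological replicates, without saying whether they came from separate differentiations, so p-values measure the spread between these libraries.

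Expected counts summed to 35923040 to 84876603 per library (median 61504816). Nr5a1 was at 87.17 to 100.27 TPM (a level per transcript length that sums to the same total in every library) in iSLC and at most 0.15 TPM elsewhere. Dmrt1 was at 192.27 to 228.38 TPM in iSLC, but also at 19.82 to 23.22 TPM in ESC and 8.69 to 9.06 TPM in EpiSC. In M and the IM conditions Dmrt1 was at most 1.19 TPM. Of the markers of the labelled stages, Pou5f1 (pluripotency) was at 1568.96 to 1652.26 TPM in ESC and 1603.57 to 1704.44 TPM in EpiSC. T (early mesoderm) was at 462.66 to 529.29 TPM in M and already at 230.3 to 252.69 TPM in EpiSC. Wt1 (genital ridge) was at 137.75 to 165.1 TPM in IM3 but at 5.74 to 7.37 TPM in IM1, below ESC (11.68 to 12.06 TPM). Osr1 (intermediate mesoderm) was at 0.8 to 1.44 TPM in IM3 and highest in iSLC (8.56 to 11.58 TPM). Sox9 was at 23.34 to 26.51 TPM in iSLC, but Amh, the hormone that marks fetal Sertoli cells, was at 0.47 to 0.61 TPM there. Sox9 was higher in every IM library (33.34 to 59.72 TPM) than in iSLC. A summed level of 6 red blood cell genes was 11.68 to 91.03 TPM for M, ESC, IM4 and IM3 libraries and 1.57 to 4.54 TPM in the others, so EpiSC against ESC, M against EpiSC, IM1 against M, IM3 against IM1, both comparisons for Activin A and iSLC against IM3 cross this partition, and its part in their results was not tested.

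Collagens are secreted or membrane proteins whose alpha chains wind into a triple helix and then assemble outside the cell. Fibrillar chains form the cross-banded fibrils of connective tissue, basement membrane chains the sheets under epithelia and around vessels, network chains beaded filaments or lattices, and fibril-associated chains coat fibrils. In the developing testis, a basement membrane encloses the cords that Sertoli cells form, and fibrillar collagens lie mainly in the interstitium between them.

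The sum of the 44 collagen levels was low in the first stages and rose in steps (the plot of summed levels by class). It was 333.1 ± 26.7 TPM in ESC (SD, n = 3), 311.1 ± 11 in EpiSC and 278.2 ± 10.3 in M, then 1844 to 2297 TPM as group means in IM1 to IM5 and 10580 ± 200 TPM in iSLC, where it made up 1.06% of all TPM. In bulk RNA, fewer cells of a type and less RNA per cell cannot be told apart. The classes did not move alike. Basement membrane chains held 84% ± 0.69 of collagen TPM in ESC (SD, n = 3) and 16% ± 0.63 in iSLC, and fibrillar chains held 5.31% ± 0.33 and 61.6% ± 0.43. Network chains held 1.43% to 3.94% as group means from ESC to IM5 and 16.7% ± 0.35 in iSLC, a sum 30.8 times that of IM3. The 4 transmembrane chains summed to 17.97 ± 1.83 TPM in M and 17.21 ± 3.06 TPM in IM3, so this sum did not move beyond its spread between those stages.

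**Figure D1:**
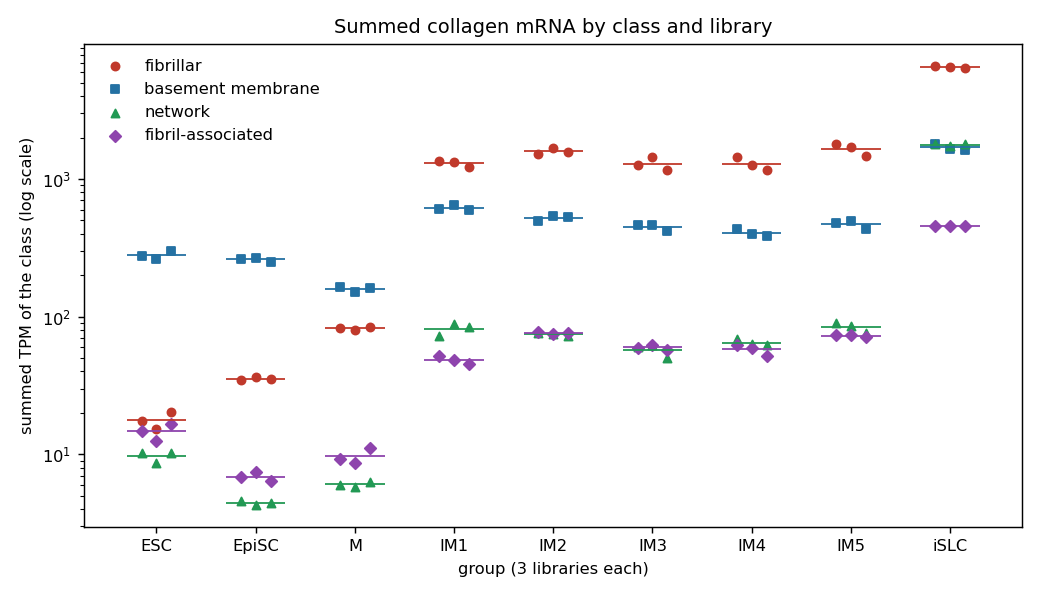
Summed TPM (log scale) of the fibrillar, basement membrane, network and fibril-associated collagen genes in each library (points, 3 for each group) with the group mean (short line). Basement membrane chains lead in ESC, EpiSC and M, fibrillar chains lead in IM1 to IM5, and in iSLC all 4 classes stand above every other library.

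Each comparison was made with the quasi-likelihood test of edgeR over all genes. A gene was called where its adjusted p was at most 0.01, its fold change at least 2 and its mean at least 100 normalized reads over all libraries and in a group compared. Among the 142 calls made on 38 collagen genes, the largest adjusted p was 3e-05, so p is not repeated for them below. The libraries of the groups compared did not overlap in any of the 142. How often this held over all genes called was not counted, so it is not shown to be particular to collagen genes. The median log2 fold change of all genes tested was between -0.06 and 0.01 in every comparison. Of the 43 collagen genes tested, 43 passed the test over all 9 groups at an adjusted p under 0.05, as did 96.4% of all genes.

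Between EpiSC and ESC, 9 of 43 collagen genes were called, 5 higher and 4 lower in EpiSC, where 8.07% of all genes were called (3.75% higher, 4.32% lower). Between M and EpiSC, 17 were called, 13 higher and 4 lower, where 14.5% of all genes were (6.79% higher, 7.72% lower). More collagen genes rose at the next step: 24 were higher and 3 lower in IM1 than in M, where 15.7% of all genes were called (9.72% higher, 5.94% lower), and the median log2 fold change of the 43 was 1.56. In IM3 against M, 21 were higher and 2 lower, where 14.9% of all genes were called (9.26% higher, 5.66% lower), with a median of 1.47, and this comparison shares the M libraries with the one before. With retinoic acid (IM3 against IM1), 7 were higher and 7 lower, where 6.34% of all genes were called (2.62% higher, 3.72% lower). With Activin A (IM2 against IM3), 7 were higher and 1 lower, where 3.8% of all genes were called (2.46% higher, 1.34% lower). With Activin A in the presence of CHIR99021 (IM5 against IM4), 7 were higher and 3 lower, where 4.09% of all genes were called (2.63% higher, 1.46% lower). In iSLC against IM3, 30 were higher and 4 lower, where 19.2% of all genes were called (10.3% higher, 8.92% lower), with a median of 3.01. The comparisons with IM3 share its 3 libraries.

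CHIR99021 moved no collagen gene past the thresholds, but it moved few of all genes tested past them, so the 0 is not particular to collagen genes. In edgeR, 0 of 43 were called in IM4 against IM3 (0.101% of all genes, 0.0% higher and 0.101% lower), and DESeq2 called 0. There, 8 of the 43 had an unadjusted p under 0.05 in edgeR, as did 12.1% of all genes. In IM5 against IM2, edgeR and DESeq2 called 0 (0.235% of all genes, 0.0432% higher and 0.192% lower). There, 13 of the 43 had an unadjusted p under 0.05 in edgeR, and the share of all genes that did was lower. The difference between these shares was not tested, so the 13 are not shown to be particular to collagen genes. An adjusted p of at most 0.01 in edgeR was reached by 3: Col11a1 with a log2 fold change of -0.61 ± 0.06 (SE), Col13a1 with -0.5 ± 0.12 and Col4a5 with -0.38 ± 0.066. These 3 were chosen for naming after their values were seen. The interaction of Activin A with CHIR99021 called 0 collagen genes in edgeR and in DESeq2 (0.0336% of all genes, 0.0096% positive and 0.024% negative). For it, 8 of the 43 had an unadjusted p under 0.05 in edgeR, as did 10.5% of all genes.

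**Figure D2:**
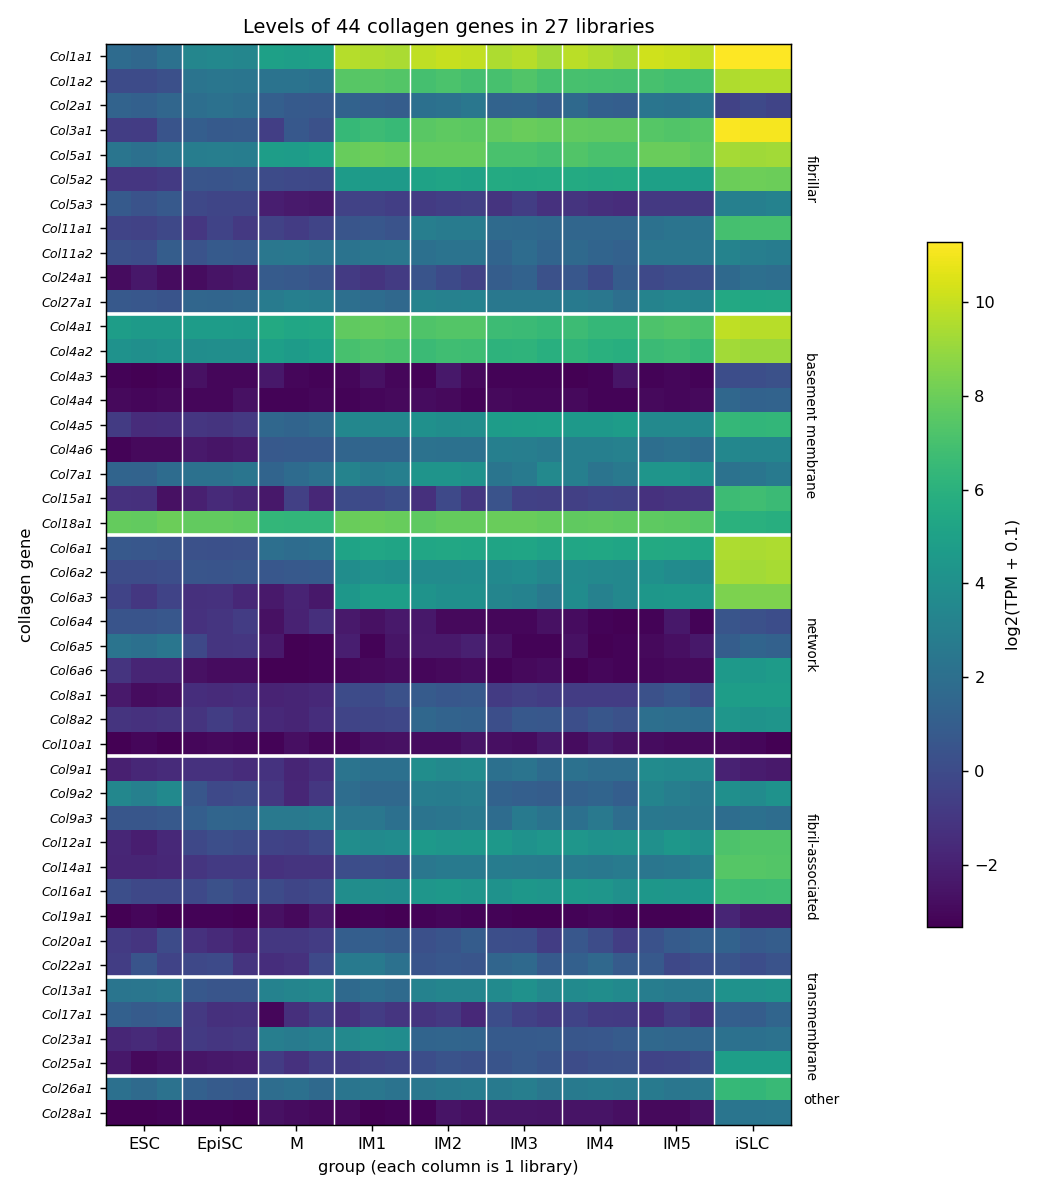
Levels of the 44 collagen genes (rows, by class) in each of the 27 libraries (columns, 3 for each group) as log2(TPM + 0.1). Col18a1 is bright in all groups but dimmer in M and iSLC, Col1a1 and Col3a1 brighten from IM1 on, and Col6a6, Col15a1 and Col28a1 are dark everywhere but in iSLC.

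Among the fibrillar chains, Col1a1, which makes up most of type I collagen, had the highest TPM of all collagens as a group mean from IM1 on. It was at 3.32, 2.8 and 4.22 TPM in ESC, at 10.27, 11.05 and 10.35 TPM in EpiSC and at 31.73, 28.93 and 30.79 TPM in M. From ESC to EpiSC it rose 3.21-fold. In IM1 it was at 808, 749 and 696 TPM, 22.9-fold above M (log2 fold change 4.52 ± 0.13, SE), and in iSLC at 2466, 2482 and 2440 TPM, 3.43-fold above IM3. The groups ESC, EpiSC, M, the IM conditions and iSLC stood in that order with no overlap of libraries between them. Within the IM conditions, IM5 (1205, 1113 and 921 TPM) and IM2 (932, 1052 and 979 TPM) were above IM3 (716, 848 and 620 TPM), IM4 (870, 742 and 637 TPM) and IM1, but by less than 2-fold: the log2 fold change was 0.47 ± 0.11 in IM2 against IM3 (adjusted p = 0.00114) and 0.58 ± 0.11 in IM5 against IM4 (adjusted p = 8.62e-05).

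Its partner in type I collagen, Col1a2, did not keep a fixed ratio to it. Col1a2 was at 0.9, 0.9 and 1.1 TPM in ESC, 4.76, 5.18 and 4.97 TPM in EpiSC and 4.62, 4.67 and 4.12 TPM in M. In the IM conditions it was at 114.85 to 181.38 TPM, highest in IM1 (178.95, 181.38 and 164.2 TPM, 37.4-fold above M), and in iSLC at 756, 773 and 768 TPM. Its rise from ESC to EpiSC was 5.79-fold, from M to IM3 27.9-fold and from IM3 to iSLC 5.75-fold. Between EpiSC and M, where Col1a1 rose 2.76-fold, it had a log2 fold change of -0.26 ± 0.11, and with Activin A it was not called (-0.07 ± 0.095 in IM2 against IM3 and 0.07 ± 0.095 in IM5 against IM4). The ratio of Col1a1 to Col1a2 TPM within a library was 2.12 ± 0.038 in EpiSC (SD, n = 3), 6.85 ± 0.64 in M, 4.29 ± 0.2 in IM1, 5.24 ± 0.3 in IM3, 8.88 ± 0.76 in IM5 and 3.22 ± 0.043 in iSLC. The type I trimer of tissues holds more of the Col1a1 chain than of Col1a2, and mRNA ratios need not equal those of the protein.

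Col3a1, the chain of type III collagen of soft tissues and vessels, had the largest ratio of highest to lowest group mean among the fibrillar genes. It was at 0.53, 0.51 and 1.26 TPM in ESC, 1.94, 1.68 and 1.72 TPM in EpiSC and 0.56, 1.52 and 1.14 TPM in M. It then stood at 87.2, 101.9 and 93.1 TPM in IM1, a rise of 119-fold over M (3.91-fold from ESC to EpiSC, 257-fold from M to IM3), and at 214.6, 246.2 and 229.7 TPM in IM3 and 2324, 2189 and 2178 TPM in iSLC. No library of IM1 overlapped M or IM3. Retinoic acid thus went with a 2.16-fold higher level (log2 fold change 1.11 ± 0.11), and iSLC with a 10.5-fold higher level than IM3 (3.4 ± 0.11). The ratio of Col3a1 to Col1a1 TPM was 0.126 ± 0.016 in IM1, 0.32 ± 0.044 in IM3, 0.158 ± 0.024 in IM5 and 0.906 ± 0.032 in iSLC (SD, n = 3).

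The start of Col3a1, on GRCm38 chromosome 1 at 45311538 on the plus strand, is shown with the 250 bases before it (chr1:45311288-45311537) because this gene had the widest range among the fibrillar chains. The capitals mark TATAAA, found once.
Col3a1: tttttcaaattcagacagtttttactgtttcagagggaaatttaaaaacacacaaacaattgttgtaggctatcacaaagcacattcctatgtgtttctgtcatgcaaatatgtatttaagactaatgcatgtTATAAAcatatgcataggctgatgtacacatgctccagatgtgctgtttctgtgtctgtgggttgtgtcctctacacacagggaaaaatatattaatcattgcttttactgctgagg
The sequence is from RefSeq (GRCm38.p6), and 35.2% of its bases are G or C.

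Col5a1 and Col5a2, chains of type V collagen that seeds and limits type I fibrils, moved apart in the IM conditions. Col5a1 was 2.04-fold lower with retinoic acid, at 237.7, 251.7 and 236.8 TPM in IM1 and 134, 134.3 and 120 TPM in IM3 (log2 fold change -1.03 ± 0.072). Col5a2 was at 25.89, 24.51 and 24.3 TPM in IM1 and 48.49, 46.87 and 49.01 TPM in IM3 (0.87 ± 0.051, adjusted p = 1.13e-13, under the fold minimum). Their ratio within a library was 9.73 ± 0.54 in IM1, 2.69 ± 0.22 in IM3, 6.58 ± 0.19 in IM2 and 2.36 ± 0.089 in iSLC (SD, n = 3), so the groups IM1 and IM3 lay far apart. From M to IM1 Col5a2 rose by 4.81 ± 0.067 on the log2 scale and from M to IM3 by 5.68 ± 0.068, and from ESC to EpiSC by 1.74 ± 0.085. Col5a1 had already risen by 1.82 ± 0.076 from EpiSC to M. Col5a3, the third type V chain, fell by 2.89 ± 0.18 from EpiSC to M, where it was at 0.13, 0.11 and 0.09 TPM, and rose by 4.35 ± 0.14 from IM3 to iSLC.

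The chains found mostly in cartilage, Col2a1 and Col11a1, parted in iSLC. Col11a1 was at 1.36, 1.43 and 1.25 TPM in IM1, 3.17, 3.04 and 2.78 TPM in IM3, 7.41, 6.55 and 6.59 TPM in IM2 and 127.8, 131.1 and 131.1 TPM in iSLC. Each of these steps separated all libraries: 1.18 ± 0.071 with retinoic acid, 1.2 ± 0.064 with Activin A and 5.39 ± 0.069 from IM3 to iSLC on the log2 scale. Col2a1, the major fibrillar chain of cartilage, was at most 5.58 TPM in any library. It was higher with Activin A (1.0 ± 0.14 in IM2 against IM3 and 1.12 ± 0.13 in IM5 against IM4) and 3.19-fold lower in iSLC (0.64, 0.83 and 0.69 TPM) than in IM3 (2.39, 2.47 and 1.92 TPM). Cartilage markers did not move together in iSLC: of the 4 tested, Acan was called higher and Hapln1 lower, and the summed level of the 5 listed was 6.62 to 7.64 TPM in iSLC and 43.44 to 51.81 TPM in IM3. Col24a1 rose by 4.5 ± 0.18 on the log2 scale from EpiSC (0.04, 0.07 and 0.09 TPM) to M (1.71, 1.58 and 1.33 TPM), and Col11a2 by 1.89 ± 0.093. In all, 10 of the 11 fibrillar genes were called higher and 1 lower in iSLC than in IM3.

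Several calls here lie near the fold minimum. Col5a1 with retinoic acid was at -0.99 without IM3 replicate 3 and at -0.86 with an offset for GC content. Col11a1 in IM1 against M was at 0.98 and 0.99 without M replicates 3 and 2 and at 0.95 without IM1 replicate 2. Col2a1 with Activin A was at 0.84 without IM2 replicate 3 and 0.91 without IM3 replicate 3 in IM2 against IM3. With a GC offset it was at 0.71 and 0.73 in IM2 against IM3 and IM5 against IM4, both under the minimum. Col11a2 in iSLC against IM3 was at 1.3 ± 0.09 and, with the GC offset, at 0.52. In M against EpiSC, Col2a1 was at -1.21 ± 0.14 and, with the GC offset, at -0.96, and Col3a1 was at -1.32 ± 0.16 and, with an offset for effective length, at -0.88.

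Col18a1, whose C-terminal fragment is endostatin, had the highest group mean TPM of the basement membrane class in every group but iSLC, where Col4a1 did. It was at 229.3, 217.5 and 254.6 TPM in ESC, where it made up 70.2% of collagen TPM, at 217.9, 221.9 and 202.9 TPM in EpiSC and at 81.9, 78.1 and 77.8 TPM in M. It was at 173.5 to 258.5 TPM in the IM conditions and at 63.2, 61.5 and 57.3 TPM in iSLC. The M and iSLC libraries lay below all others. Col18a1 was thus 2.82-fold lower in M than in EpiSC (log2 fold change -1.5 ± 0.07), 2.89-fold higher in IM1 than in M, 2.66-fold higher in IM3 than in M, and 3.95-fold lower in iSLC than in IM3 (-1.98 ± 0.072). Retinoic acid gave -0.12 ± 0.069 (adjusted p = 0.141) and Activin A -0.12 ± 0.069 and -0.13 ± 0.069.

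Type IV collagen, the sheet-forming core of basement membranes, is built from 6 chains whose genes lie in head-to-head pairs. On GRCm38 these are Col4a1 (chr8:11198423-11312826, minus strand) with Col4a2 (chr8:11312805-11449287, plus strand), whose annotated starts overlap by 22 bases. Next are Col4a4 (chr1:82448423-82586849, minus strand) with Col4a3 (chr1:82586921-82722059, plus strand), 71 bases apart, and Col4a6 (chrX:141165403-141474076, minus strand) with Col4a5 (chrX:141475385-141689234, plus strand), 1308 bases apart. The Col4a1 and Col4a2 pair is the one of nearly all basement membranes, while Col4a3 to Col4a6 are more restricted. The stretches before the starts of the restricted chains are shown because these pairs moved unlike Col4a1 and Col4a2. They run 5′ to 3′ on each gene's own strand and hold no annotated exon, from RefSeq (GRCm38.p6). They lie at chrX:141474077-141474326 for Col4a6, chrX:141475169-141475384 for Col4a5 and chr1:82586850-82586920 for Col4a4, where the stretch is the whole interval to Col4a3. The Col4a5 stretch ends 35 bases before the start that RefSeq gives, at the GENCODE start. Capitals mark CCAAT in Col4a5 and, in Col4a6, GGGCGG as read on the other strand.
Col4a6: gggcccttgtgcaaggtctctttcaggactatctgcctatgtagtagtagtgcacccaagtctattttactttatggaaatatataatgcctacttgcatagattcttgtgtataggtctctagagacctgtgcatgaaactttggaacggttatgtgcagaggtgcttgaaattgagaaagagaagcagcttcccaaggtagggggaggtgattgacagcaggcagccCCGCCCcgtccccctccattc
Col4a5: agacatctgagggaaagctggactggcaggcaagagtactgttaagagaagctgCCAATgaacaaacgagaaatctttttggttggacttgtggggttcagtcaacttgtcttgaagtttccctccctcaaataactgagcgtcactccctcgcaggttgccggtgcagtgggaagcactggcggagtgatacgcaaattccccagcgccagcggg
Col4a4: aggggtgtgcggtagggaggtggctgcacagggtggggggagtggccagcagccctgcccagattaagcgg
The Col4a5 stretch holds 1 CCAAT, the Col4a6 stretch 1 GGGCGG on the other strand and the Col4a4 stretch neither. RefSeq windows from 250 bases before to 50 after a start were at hand for 35 of the 44 collagen genes. On either strand CCAAT was in 34.2% of their 38 windows and 37.4% of all 32851 windows, GGGCGG in 60.5% and 35.7%, TATAAA in 13.2% and 13.6%, and AGGTCA, the half-site of many nuclear receptors, in 21.1% and 16.3%. Col4a4 is among the 8 genes with AGGTCA, outside the stretch shown, and Col4a5 and Col4a6 are not.

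From EpiSC on, Col4a1 and Col4a2 rose and fell together, and against Col4a5 and Col4a6 in the IM conditions. In EpiSC against ESC their log2 fold changes had opposite signs (0.12 ± 0.066 and -0.17 ± 0.082), and neither was called. Col4a1 was at 27.4, 24.3 and 25.1 TPM in ESC, 26.3, 26.7 and 25.9 TPM in EpiSC and 45.7, 39.8 and 43.9 TPM in M. It was at 206.4, 218.9 and 203.9 TPM in IM1 but 103.7, 97.5 and 87.1 TPM in IM3, and at 938, 842 and 844 TPM in iSLC. Col4a2 was at 17.4, 15.6 and 17.1 TPM in ESC, 14.2, 14.5 and 14.6 TPM in EpiSC, 29.6, 25.3 and 30.03 TPM in M, 132.5, 144.5 and 133.9 TPM in IM1, 70.6, 71.8 and 58.8 TPM in IM3 and 600.4, 532 and 533 TPM in iSLC. The IM1 libraries were above all other IM libraries for both genes. Both rose 4.46-fold and 4.49-fold from M to IM1, were 2.33-fold and 2.17-fold lower with retinoic acid (log2 fold change -1.22 ± 0.066 and -1.12 ± 0.081), and were 9.38-fold and 8.32-fold higher in iSLC than in IM3. The ratio of Col4a1 to Col4a2 TPM stayed between 1.39 ± 0.066 (IM4) and 1.83 ± 0.04 (EpiSC) as group means (SD, n = 3).

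Col4a5 was at 10.57, 10.83 and 10.85 TPM in IM1 and 26.44, 27.67 and 28.53 TPM in IM3, and Col4a6 at 2.57, 2.62 and 2.6 TPM and 7.64, 7.44 and 6.76 TPM. Both were higher with retinoic acid (1.27 ± 0.066 and 1.41 ± 0.074 on the log2 scale), where Col4a1 and Col4a2 were lower. With Activin A the signs were the other way round. Col4a5 had a log2 fold change of -0.85 ± 0.065 in IM2 against IM3 (adjusted p = 6.55e-11) and -1.09 ± 0.066 in IM5 against IM4, and Col4a6 of -0.72 ± 0.073 (adjusted p = 8.1e-09) and -1.03 ± 0.072. Col4a1 had 0.78 ± 0.065 and 0.76 ± 0.065 and Col4a2 0.66 ± 0.08 and 0.63 ± 0.08 (adjusted p between 3.47e-10 and 3.84e-07), all 4 under the fold minimum. Col4a5 and Col4a6 had also risen by 2.77 ± 0.1 and 4.23 ± 0.12 from EpiSC to M, when Col4a1 and Col4a2 had changes of 0.66 ± 0.066 and 0.91 ± 0.082, and by 3.12 ± 0.074 and 1.96 ± 0.078 from M to IM3. Col4a6 did not keep up with Col4a5 in iSLC, with 0.47 ± 0.071 against 1.6 ± 0.065, and their ratio went from 3.8 ± 0.39 in IM3 to 7.93 ± 0.27 in iSLC (SD, n = 3).

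**Figure D3:**
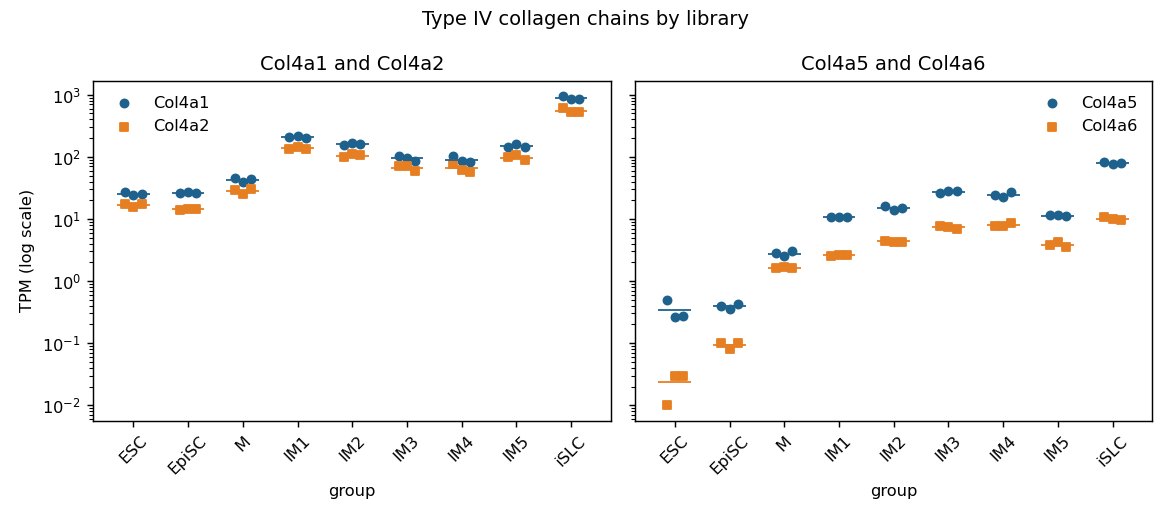
TPM (log scale) of Col4a1 and Col4a2 (left) and of Col4a5 and Col4a6 (right) in each library (points) with the group mean (short line). Among the IM conditions IM1 has the highest Col4a1 and Col4a2 and the lowest Col4a5 and Col4a6, and all 4 genes are highest in iSLC.

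Some of these calls depend on a setting. Col4a2 with retinoic acid was at -0.76 with an offset for GC content, and Col4a2 in IM3 against M at 0.99 without IM3 replicate 2. Col4a6 in IM5 against IM4 was at -0.96 without IM4 replicate 3 or without IM5 replicate 3 and at -1 with an offset for effective length. Markers of other cells that make type IV collagen also differed between IM1 and IM3. Of 6 endothelial markers, 4 were lower with retinoic acid (Cdh5 by -1.97 ± 0.1 and Tie1 by -1.76 ± 0.095 on the log2 scale), their sum was 143.28 to 155.8 TPM in IM1 and 72.15 to 83.22 TPM in IM3, and each of the 6 had a mean of at least 1 TPM in both. Of 8 markers of parietal and primitive endoderm, 3 were lower, led by Sox17 (-2.54 ± 0.14) and Sox7 (-2.25 ± 0.12), and 1 higher, with a sum of 438.45 to 443.16 TPM in IM1 and 532.8 to 578.34 TPM in IM3. In iSLC the endothelial sum was lower still, at 27.53 to 30.05 TPM, with 5 of the 6 markers called lower than in IM3 and 1 higher, while Col4a1 and Col4a2 were highest. The endoderm sum was higher in iSLC than in IM3, at 713.02 to 759.15 TPM, with 3 of the 8 markers called higher and 2 lower. The part of these markers in the results was not tested.

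The other basement membrane chains were called in few conditions. Col4a3 and Col4a4, chains of the adult kidney filter, were at most 0.09 TPM in any library outside iSLC. In iSLC Col4a4 had 1125, 805 and 868 counts against 9, 4 and 5 in IM3, a ratio of summed counts per total of 104 (95% counting interval 65.7 to 176), and Col4a3 had 340, 239 and 272 counts against 4, 1 and 2, a ratio of 81.4 (39.3 to 203). Col4a4 was called, with a mean so near 100 reads that it fell under that minimum without any 1 of the iSLC replicates (log2 fold change 6.69 to 6.82) and in DESeq2, and Col4a3 was under it. Col15a1, which links basement membranes to the fibrils beside them, was 170-fold higher in iSLC (103.3, 109.4 and 99.3 TPM) than in IM3 (1.21, 0.6 and 0.57 TPM) and also 6.49-fold higher in IM1 than in M. In a fit of only IM1 and M, Col15a1 fell under the read minimum and that call was lost. Col7a1, the anchoring fibril chain of skin, was higher with Activin A, at 18.52, 18.37 and 16.92 TPM in IM2 and 19.56, 19.55 and 15.43 TPM in IM5 against 4.94, 6.29 and 11.6 TPM in IM3 and 7.71, 4.82 and 5.88 TPM in IM4. No library with Activin A overlapped one without it among these 4 groups, and the log2 fold changes were 1.42 ± 0.14 and 1.64 ± 0.14.

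Network chains, whose summed TPM had the largest ratio of iSLC to IM3 among the 4 main classes, were called higher in 7 of the 8 tested and lower in none. Col6a1, Col6a2 and Col6a3 form the beaded filaments of type VI collagen around most mesenchymal cells. Col6a1 was at 36.3, 37.5 and 32.2 TPM in IM3 and 714, 685 and 715 TPM in iSLC, Col6a2 at 11.96, 13.67 and 10.26 TPM and 652, 619 and 648 TPM, and Col6a3 at 9.9, 8.65 and 5.98 TPM and 342, 356 and 355 TPM. The 3 chains were thus 20.1-fold, 53.5-fold and 49.1-fold higher in iSLC. The excess of Col6a1 over Col6a2 shrank at this step, from a ratio of 2.97 ± 0.2 in IM3 to 1.1 ± 0.0063 in iSLC (SD, n = 3).

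Col6a1 was 3.19-fold higher in M than in EpiSC and rose by 3.24 ± 0.076 on the log2 scale from M to IM1 and by 3.06 ± 0.077 from M to IM3. Col6a2 rose by 3.19 ± 0.11 from M to IM1 and by 2.73 ± 0.11 from M to IM3. Col6a3 had 16, 16 and 13 counts in M and 5433, 9435 and 7723 in IM1, a ratio of summed counts per total of 372 (95% counting interval 278 to 510). It was also the only type VI chain called among the IM conditions: 3.61-fold lower with retinoic acid (20.74, 29.35 and 29.44 TPM in IM1) and higher again with Activin A, at 18.19, 15.41 and 15.35 TPM in IM2 (1.09 ± 0.099) and 21.09, 22.31 and 20.6 TPM in IM5 (1.07 ± 0.097). The ratio of Col6a3 to Col6a1 TPM was 0.704 ± 0.11 in IM1, 0.23 ± 0.043 in IM3 and 0.498 ± 0.02 in iSLC.

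The 3 other type VI chains, Col6a4, Col6a5 and Col6a6, are neighbours on chromosome 9 that resemble each other and can stand in for Col6a3, and RSEM may divide reads between them. They were at most 0.14 TPM in any library of IM1 to IM5. Col6a6 had 3, 6 and 6 counts in IM3 and 8498, 6565 and 7871 in iSLC, a ratio of 1020 (620 to 1830), which made it the largest fold change of any collagen gene (10.05 ± 0.23 on the log2 scale). Col6a5 had 3, 2 and 2 counts in IM3 and 545, 549 and 570 in iSLC, a ratio of 159 (77.1 to 396). Col6a5 was higher still in ESC, at 4.86, 4.02 and 5.16 TPM, and 9.69-fold lower in EpiSC, while in M it had 6, 1 and 3 counts. Col6a4 followed the same course under the read minimum, at 1.28 to 1.49 TPM in ESC and 0.98 to 1.37 TPM in iSLC.

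Col8a1 and Col8a2, which form the short lattices of type VIII collagen made by endothelium and smooth muscle, were both called higher in IM5 than in IM4 and in iSLC than in IM3. Col8a1 was at 0.91, 0.87 and 1.12 TPM in IM1, 0.47, 0.57 and 0.5 TPM in IM3, 1.7, 1.49 and 1.6 TPM in IM2 and 28, 28.21 and 28.31 TPM in iSLC. Its log2 fold change was 1.67 ± 0.14 in IM2 against IM3, 1.26 ± 0.13 in IM5 against IM4, 2.26 ± 0.16 in IM1 against M and 5.79 ± 0.13 in iSLC against IM3. With retinoic acid it was -1.01 ± 0.14, and -0.89 without IM1 replicate 3 and -0.92 without IM3 replicate 1. Col8a2 rose by 1.48 ± 0.13 in IM5 against IM4 and by 3.87 ± 0.13 in iSLC, and had 0.91 ± 0.14 (adjusted p = 5.7e-06) in IM2 against IM3. The summed level of 5 smooth muscle markers was 1373.75 to 1666.97 TPM in IM3, 2388.81 to 2472.37 TPM in IM2, 2487.53 to 2713.21 TPM in IM1 and 2746.96 to 2834.48 TPM in iSLC. Of these 5, Acta2 was called lower with retinoic acid (-1.19 ± 0.085) and higher in IM5 against IM4 (1.07 ± 0.085), and Myh11 higher in iSLC (5.59 ± 0.15). Their part in these results was not tested.

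**Figure D4:**
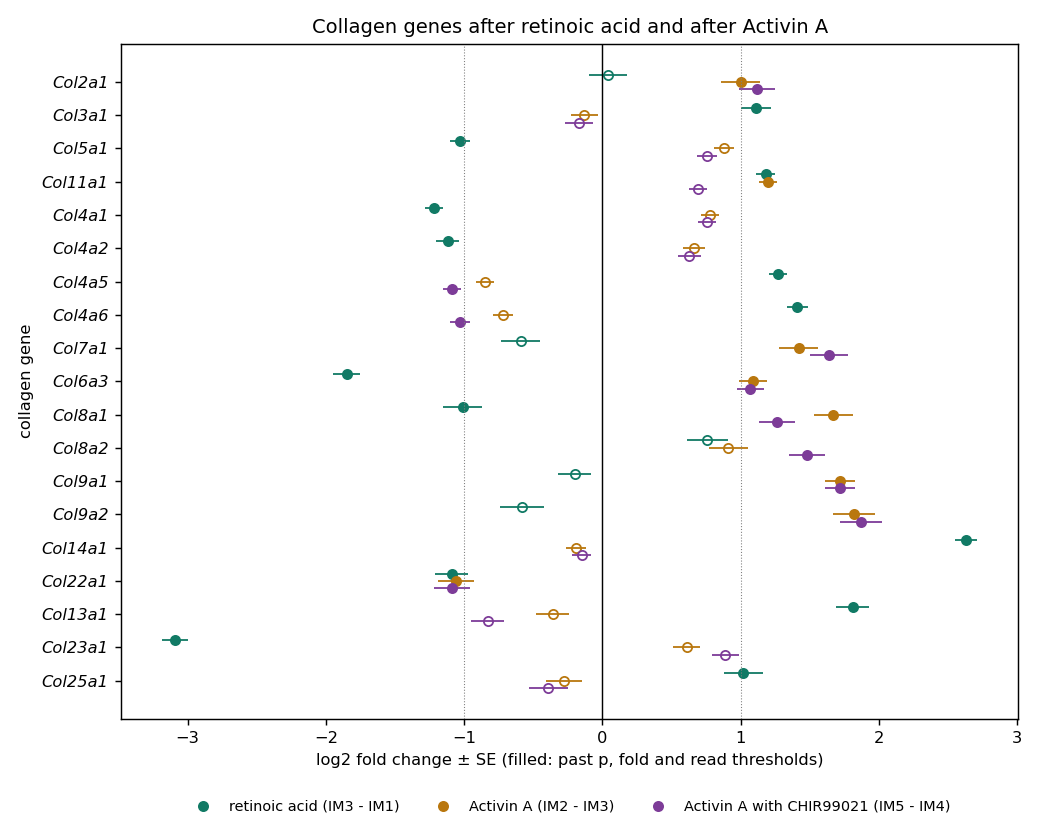
Log2 fold change ± SE of the 19 collagen genes called with retinoic acid (IM3 against IM1) or with Activin A (IM2 against IM3, and IM5 against IM4 with CHIR99021), where filled points passed all thresholds and dotted lines mark a 2-fold change. Col4a1, Col4a2, Col5a1, Col6a3, Col8a1 and Col23a1 lie left for retinoic acid and right for Activin A, and Col4a5 and Col4a6 the other way round. Other genes shown also have opposite signs, among them Col7a1, Col9a1 and Col9a2 in the first direction and Col13a1 and Col25a1 in the second.

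Of the 9 fibril-associated genes, 7 were called higher in IM1 than in M and 6 higher in IM3 than in M, none lower. Col12a1, Col14a1 and Col16a1, which bind the surface of type I fibrils or link them to cells, rose at this step and again in iSLC. Col12a1 was at 0.66, 0.61 and 0.82 TPM in M, 14.39, 12.55 and 13.76 TPM in IM1, 21.55, 17.39 and 20.22 TPM in IM3 and 147.3, 160.3 and 157.5 TPM in iSLC. Col16a1 was at 0.93, 0.72 and 0.85 TPM in M, 13.98, 14.35 and 13.49 TPM in IM1, 17.52, 20.96 and 19.11 TPM in IM3 and 112.9, 103.6 and 105.8 TPM in iSLC. Neither had overlapping libraries between these stages. Their log2 fold changes from M to IM3 were 4.57 ± 0.12 and 4.79 ± 0.14 and from IM3 to iSLC 2.86 ± 0.097 and 2.63 ± 0.096, while from M to IM1 they were 4.01 ± 0.12 and 4.45 ± 0.14, and Col12a1 had also risen by 2.44 ± 0.19 from ESC to EpiSC.

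Col14a1 was the one fibril-associated gene called higher with retinoic acid. It was at 0.33, 0.35 and 0.36 TPM in M, 1.0, 1.05 and 0.95 TPM in IM1, 6.77, 6.53 and 6.11 TPM in IM3 and 171.1, 171.9 and 165.0 TPM in iSLC. The IM2, IM4 and IM5 libraries, which all had retinoic acid, lay at 5.26 to 7.16 TPM, all above IM1. The log2 fold change was 4.16 ± 0.1 from M to IM3, 2.63 ± 0.083 with retinoic acid, the largest rise among the collagen genes called there, and 4.61 ± 0.074 in iSLC. Of 7 fibroblast markers, 4 were called higher with retinoic acid, led by Lum (3.51 ± 0.16) and Dcn (3.41 ± 0.18), proteoglycans that bind fibrils, 1 was called lower and 2 were not called, with a sum of 261.51 to 265.36 TPM in IM1 and 666.98 to 694.82 TPM in IM3. The sum was 951.42 to 1041.97 TPM in iSLC, where Lum (3.92 ± 0.12) and Dcn (3.63 ± 0.14) were again among 3 markers called higher. Their part in these results was not tested.

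Of the type IX chains, which coat type II fibrils, Col9a1 and Col9a2 were called higher with Activin A in both comparisons, and Col9a3 was not called in either (0.06 ± 0.14 and 0.29 ± 0.14 on the log2 scale, adjusted p = 0.753 and 0.087). Col9a1 was at 13.93, 11.64 and 12.92 TPM in IM2 and 13.31, 11.88 and 11.75 TPM in IM5, and at 4.14, 4.87 and 3.31 TPM in IM3 and 4.24, 3.67 and 3.65 TPM in IM4. Col9a2 was at 7.18, 6.96 and 7.63 TPM in IM2 and 9.64, 7.35 and 5.83 TPM in IM5, and at 2.29, 2.03 and 1.88 TPM in IM3 and 2.19, 2.47 and 1.94 TPM in IM4. For both genes the IM2 and IM5 libraries lay above those of IM3 and IM4. The log2 fold change of Col9a1 was 1.72 ± 0.11 in both comparisons, and that of Col9a2 was 1.82 ± 0.15 and 1.87 ± 0.15. In iSLC these 2 chains parted: Col9a1 fell to 0.16, 0.12 and 0.1 TPM, 30.5-fold below IM3, and Col9a2 rose to 15.32, 13.16 and 17.2 TPM, 7.12-fold above it. Earlier, Col9a2 was 11-fold lower in EpiSC than in ESC (10.74, 8.25 and 12.05 TPM), Col9a1 was 14-fold higher in IM1 than in M, and Col9a3 was 2.15-fold higher in M than in EpiSC. Col9a3 stayed at 3.49 to 6.98 TPM in every library from M to iSLC, and its annotation overlaps that of Tcfl5 on the other strand over 6.1% of its exons.

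Col22a1, a chain of tissue junctions, was lower under both factors. It was at 6.49, 6.05 and 4.24 TPM in IM1, 2.59, 3.04 and 1.65 TPM in IM3 and 1.26, 1.48 and 1.33 TPM in IM2. The log2 fold changes were -1.09 ± 0.12 with retinoic acid and -1.06 ± 0.13 and -1.09 ± 0.13 with Activin A, close to the minimum. They came to -0.91 without IM1 replicate 1 and -0.95 with an offset for GC content for retinoic acid, to -0.99 without IM3 replicate 1 in IM2 against IM3, and to -0.98 without IM5 replicate 3 in IM5 against IM4. With an offset for effective length they were -0.79 (adjusted p = 0.0898) and -0.96 (adjusted p = 0.0308) for Activin A. From M it had risen 11.5-fold to IM1, and in iSLC it was 2.31-fold lower than in IM3, but with the length offset the adjusted p there was 0.0131. Col20a1 was called higher in iSLC at 1.02 ± 0.19 but came to 0.87 without IM3 replicate 3, 1 without iSLC replicate 1 and 0.65 with an offset for GC content. Col19a1 had at most 36 counts in a library and was never called.

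Of the 4 transmembrane collagens, 3 rose between EpiSC and M. Col23a1 was at 0.46, 0.39 and 0.44 TPM in EpiSC, 7.5, 6.54 and 7.73 TPM in M, 11.84, 14.99 and 13.71 TPM in IM1 and 1.63, 1.69 and 1.74 TPM in IM3. It was 16-fold higher in M than in EpiSC and 8.5-fold lower with retinoic acid (-3.09 ± 0.095), the largest fall among the collagen genes called with retinoic acid. It was 4.9-fold lower in IM3 than in M and 2.56-fold higher in iSLC than in IM3. Col13a1, a collagen of cell contacts and the neuromuscular junction, moved against Col23a1 with retinoic acid but with it from EpiSC to M. It was at 8.82, 9.82 and 11.26 TPM in M, 3.02, 3.84 and 3.24 TPM in IM1 and 12.43, 16.71 and 11.18 TPM in IM3, 3.05-fold lower in IM1 than in M and 3.51-fold higher with retinoic acid. In IM3 against M it was not called (0.2 ± 0.12, adjusted p = 0.132). It had been 3.28-fold lower in EpiSC than in ESC and 6.07-fold higher in M than in EpiSC.

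Col25a1, a collagen of developing muscle and neurons, was at 0.08, 0.09 and 0.11 TPM in EpiSC, 0.51, 0.32 and 0.56 TPM in M, 1.29, 1.59 and 1.26 TPM in IM3 and 29.1, 29.4 and 28.7 TPM in iSLC. Its step into iSLC was 21.6-fold and its rise from M to IM3 2.35-fold. Its step with retinoic acid was 1.02 ± 0.14 on the log2 scale, and 0.91 without IM1 replicate 1, 0.94 without IM3 replicate 2 and 0.97 with an offset for GC content. Its rise from EpiSC to M (2.56 ± 0.22) fell under the read minimum without M replicate 3 and in a fit of only EpiSC and M. Col26a1 was at 6.19, 7.47 and 5.39 TPM in IM3 and 88.9, 82.7 and 95 TPM in iSLC, 14.3-fold higher. It was 2.26-fold lower in EpiSC than in ESC, and its rise from EpiSC to M (1.06 ± 0.15) was at 0.92 without EpiSC replicate 3 and 0.95 without M replicate 2, and at 0.9 with an offset for effective length. Col28a1 had 10, 7 and 7 counts in IM3 and 828, 692 and 749 in iSLC, a ratio of 63.3 (42.4 to 99.0), but its mean over all libraries was under the read minimum. Col17a1, the hemidesmosome collagen of epithelia, was never called and reached at most 2.65 TPM.

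**Figure D5:**
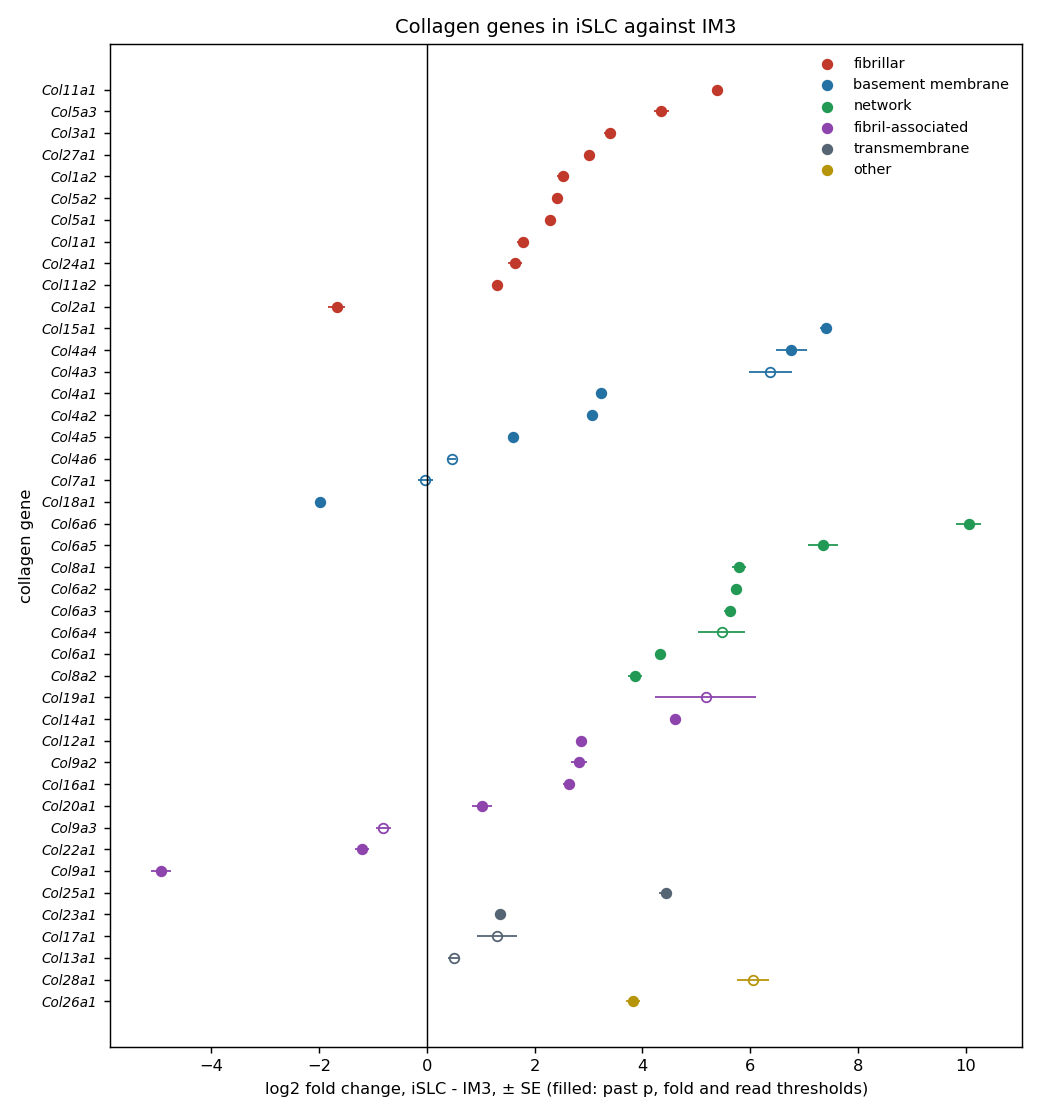
Log2 fold change ± SE of the 43 collagen genes tested in iSLC against IM3, by class, where filled points passed all thresholds. Points lie between -4.93 (Col9a1) and 10.05 (Col6a6), and the genes called lower are Col2a1, Col18a1, Col9a1 and Col22a1.

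The partners that collagen chains need were looked at as 4 lists. Of 19 enzymes and chaperones that modify and fold procollagen, 9 were higher and none lower in IM1 than in M (median log2 fold change 0.96), 10 higher in IM3 than in M (1.04) and 11 higher in iSLC than in IM3 (1.22). Serpinh1, the collagen chaperone Hsp47, was at a mean of 410 TPM in M, 1310 TPM in IM3 and 1695 TPM in iSLC, and was not called at the last step. The genes that led were the prolyl hydroxylase gene P4ha3 with Colgalt2, a collagen galactosyltransferase, in IM1 against M (5.08 ± 0.1 and 4.23 ± 0.26 on the log2 scale), P4ha3 with the peptidyl-prolyl isomerase gene Fkbp10 in IM3 against M (4.21 ± 0.11 and 2.53 ± 0.058), and Colgalt2 with P3h3 in iSLC (3.79 ± 0.19 and 3.0 ± 0.088). Elsewhere 1 gene of the list was called in EpiSC against ESC (P3h2, 1.8 ± 0.14), 4 in M against EpiSC led by P3h2 (2.19 ± 0.1) and P4ha1 (1.86 ± 0.065), 1 with retinoic acid (Colgalt2, -1.3 ± 0.19), and none in IM2 against IM3 but P4ha3 in IM5 against IM4 (1.16 ± 0.074). The 1 of 19 (5.26%) was below the 8.07% of all genes called in EpiSC against ESC and near the 6.34% called with retinoic acid and the 4.09% called in IM5 against IM4. The share of all genes called was 14.5% in M against EpiSC, 15.7% in IM1 against M, 14.9% in IM3 against M, 3.8% in IM2 against IM3 and 19.2% in iSLC against IM3, and the counts of all 4 lists stand against these shares.

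Of 14 genes that trim procollagen or crosslink it, 9 were higher and 2 lower in iSLC than in IM3. Lox, the lysyl oxidase that crosslinks fibrils, was at a mean of 1.343 TPM in IM3 and 125.8 TPM in iSLC (6.51 ± 0.11), and Adamts14, an N-propeptidase, rose by 3.52 ± 0.1. Lox was also higher with retinoic acid (2.16 ± 0.16), while Loxl4 was lower (-3.27 ± 0.12), among 2 higher and 2 lower. With Activin A, 4 of the 14 were higher in each comparison and none lower, led by Tll1 (2.03 ± 0.16 and 1.71 ± 0.18) and Adamts2 (1.89 ± 0.09 and 1.66 ± 0.089), which cut the C- and N-propeptides. From M to IM1, 5 rose and 1 fell, led by Loxl1 (5.25 ± 0.17) and Adamts2 (4.09 ± 0.12), and from M to IM3, 6 rose and 2 fell, led by Loxl1 (4.98 ± 0.17) and Lox (4.68 ± 0.24). In M against EpiSC 4 were higher and 4 lower, led by Lox (-3.91 ± 0.26) and Adamts3 (2.19 ± 0.1), and in EpiSC against ESC 4 were higher and 2 lower, led by Lox (2.0 ± 0.2) and Adamts14 (-1.8 ± 0.097). Tll1 was the single gene called in IM5 against IM2 (-1.02 ± 0.14).

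Of 8 collagen receptors tested, 5 were higher in IM1 than in M, led by the integrin gene Itga2 (6.19 ± 0.32) and the receptor kinase gene Ddr2 (3.24 ± 0.23), and 4 in IM3 than in M, led by Ddr2 (3.53 ± 0.23) and Itga1 (2.49 ± 0.12). In iSLC 3 were higher, led by Ddr2, at a mean of 0.8833 TPM in IM3 and 59 TPM in iSLC (6.28 ± 0.12), and Itga11 (4.06 ± 0.16), both receptors for fibrillar collagen. Itga2 alone was called with retinoic acid (-2.23 ± 0.22) and in IM2 against IM3 (1.21 ± 0.22). In EpiSC against ESC 3 were higher and 2 lower, led by Ddr2 (-3.48 ± 0.22) and Itga1 (1.61 ± 0.12), and in M against EpiSC Itga1 was lower (-1.83 ± 0.12).

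Of 15 laminin, nidogen and proteoglycan genes of basement membranes, 5 were higher and 1 lower in iSLC than in IM3, with Lama4 among the higher ones (3.25 ± 0.072). From M to IM1, 7 rose and 2 fell, and from M to IM3, 4 rose and 2 fell, both led by the nidogen gene Nid1 (4.55 ± 0.075 and 3.6 ± 0.072) and Lama2 (3.23 ± 0.18 and 3.27 ± 0.19). With retinoic acid 3 were lower, 1 was higher and 11 were not called. Lama4 (-1.63 ± 0.07) was among the lower ones, as were Col4a1 and Col4a2 of the collagen genes, but the list did not move as a whole. With Activin A, Lamb3 was higher in both comparisons (1.16 ± 0.17 and 1.05 ± 0.17) and Lama2 lower in IM5 against IM4 (-1.81 ± 0.16). In M against EpiSC 4 were higher and 1 lower, led by Lama3 (-4.33 ± 0.11) and Lama4 (3.92 ± 0.099), and in EpiSC against ESC 4 were lower and none higher, led by Nid1 (-2.72 ± 0.07) and Lama3 (-1.63 ± 0.081).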

How the data were processed

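Bulk RNA sequencing of 27 libraries (9 groups of 3, grouped by the labels) was analysed from 1 file per library. Per the labels and the methods of the study, the authors trimmed reads with cutadapt 1.9.1, aligned them to GRCm38 with STAR 2.5.2a and quantified genes with RSEM 1.3.0. The deposited files hold an expected count (the estimated number of reads per gene, not normalized). They also hold TPM and FPKM (values scaled by gene length and library total), which the authors' RSEM run computed from those counts. Whether counting used strand is not given in the sources used here, so a gene and its antisense partner may share reads. Totals of 35923040 to 84876603 expected counts per library set the precision, and counting intervals cover counting error only.

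Collagen genes were matched by symbol, and 48349 of 48795 genes had one. Members and lists were chosen with earlier results of these data known. Expected counts were rounded and tested in edgeR 4.0.16 (TMM, filterByExpr, quasi-likelihood F-test, two-sided, 1 model over 27 libraries, Benjamini-Hochberg over 20839 genes) with limma 3.58.1 in R 4.3.3. A call required 3 things: adjusted p no higher than 0.01, a change of 2-fold or more, and 100 or more normalized reads as the mean of all libraries and of a compared group. Levels and chain ratios are TPM as deposited, and ratios were not tested. The named genes are Col1a1, Col1a2, Col3a1, Col4a1 and Col4a2 plus, per class and comparison, up to 3 called members of largest log2 fold change in either direction. From each partner list, up to 2 genes per comparison are named. Other genes are named outside this rule, among them Serpinh1, marker genes, Col20a1 and members never called, such as Col4a3, Col17a1, Col19a1 and Col28a1.

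Alternatives were DESeq2 1.42.0, its size factors, no low-count filter, no read or fold minimum, GC and length offsets, only the groups compared, a replicate block, other units for ratios and leaving out each library. Same-numbered libraries of IM4 and IM3 deviated together (correlations of 0.178 to 0.206 over genes). Libraries of different numbers were not compared, so whether the numbers pair IM4 with IM3 is not settled. The replicate block fitted a shared effect of number across all groups, not a pairing of IM4 with IM3. In data simulated for IM3 against IM1 over 19783 genes, 99.5% of 200 changed genes were called and 0 unchanged ones. The planted changes were all well above the fold minimum, in genes well above the read minimum. The simulation therefore does not cover calls near either minimum.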

Additional observations from a re-analysis of the deposited data

Results flagged for a closer look

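The effect of Activin A on Col11a1, a minor fibrillar chain, differed with CHIR99021 by the interaction term. The difference between the log2 fold changes of IM5 against IM4 and of IM2 against IM3 was -0.52 ± 0.091 (edgeR quasi-likelihood test, adjusted p = 0.00461), under the 2-fold minimum. Col11a1 was at 7.41, 6.55 and 6.59 TPM in IM2 against 3.17, 3.04 and 2.78 TPM in IM3, and at 4.21, 4.75 and 4.77 TPM in IM5 against 2.69, 2.69 and 2.73 TPM in IM4. Over 20 alternative settings the difference was -0.56 to -0.42 with an adjusted p of 1.79e-05 to 0.217, at most 0.01 in 9 of them.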

How the results depend on the processing

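None of the 142 called differences changed sign under any alternative. DESeq2 lost 1 call, its size factors, no low-count filter and the replicate block none, the GC offset 9, the length offset 6 and fits on only the groups compared 7. These 7 were Col25a1 in M against EpiSC and Col5a3, Col15a1 and Col8a2 in IM1 against M. The rest were Col8a2 and Col9a2 in IM3 against M and Col20a1 in iSLC against IM3. All but Col20a1 fell under the read minimum. Of 852 repeats without 1 library, 24 lost the call, and the library is named beside the gene in the text. Counts moved by over 1.5 times only without a minimum: 17 genes were called in EpiSC against ESC without the read minimum, and without the fold minimum 19 there, 28 with retinoic acid, 20 in IM2 against IM3, 21 in IM5 against IM4, 3 in IM5 against IM2 and 1 for the interaction. Without 1 library each, counts were 9 to 11, 16 to 17, 26 to 27, 22 to 24, 12 to 14, 7 to 9, 8 to 10 and 32 to 34 in the order of the text, 0 for CHIR99021 and the interaction, and 43 over the 9 groups. The length offset gave 8 higher and 1 lower in IM5 against IM4 and 7 and 0 in IM2 against IM3. The GC offset moved the median of all genes in M against EpiSC from -0.056 to -0.12, and gave 6 higher and 4 lower with retinoic acid. The replicate block kept the counts of 9, 17, 27, 23, 14, 8, 10, 0, 0 and 34. Correlations of same-numbered libraries included a value under 0.1 in every comparison but IM4 against IM3. Of 82 chain ratios, 55 moved by over 1 SD when counts, which leave out gene length, replaced TPM. None moved with FPKM, but a ratio within a library is the same in TPM and FPKM up to rounding. Neither change of unit therefore tests the ratios. Low counts limit Col4a3, Col6a4, Col10a1, Col19a1 and Col28a1.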
